A study of Homo sapiens with 8 samples.

Results

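The comparison described here is between the control transfections of LNCaP cells: the array of cells given a control siRNA (siControl) minus the array of cells given a negative control miRNA (nc). It uses 2 of the 8 arrays of the study, chosen by their titles and not by any measured value. LNCaP is an established human prostate cancer line that responds to androgen and secretes prostate kallikreins. Both lines were kept in serum-containing RPMI medium, and RNA was taken 72 hours after transfection. The other LNCaP arrays, from cells given miR-29b or an siRNA against TET2 (siTET2), show where the control arrays lie among the 4 arrays of the line. The same pair of controls in DU145, an established prostate cancer line that grows without androgen, gives values from arrays that the LNCaP comparison does not share. There was 1 array per line and construct, so no p-value is given, and differences of construct, dish and array cannot be told apart. The sequences of the control constructs are not given in the sources used here.

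Small RNA duplexes brought into a cell are loaded into Argonaute proteins, where a guide strand finds transcripts by base pairing, mainly through its seed (bases 2 to 8). A control duplex is designed to have no intended target, but it still occupies this machinery, and double-stranded RNA can also meet the sensors of the interferon system. A study with both an miRNA and an siRNA therefore carries a control of each kind. The question is which gene groups differ between these controls.

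All values are deposited levels read as log2, so a difference of 1 is 2-fold and one of 0.585 is 1.5-fold. Positive differences mean a higher level with siControl. The array medians in LNCaP lay between 7.10 and 7.17. Of 33297 probe sets, 19460 carried 1 gene symbol, 1754 several and 12083 none, and 18417 genes were named. Genes were described above a floor, a mean of at least 7.67 over the 4 LNCaP arrays, which 9209 passed. Of the measured LNCaP marker genes, 11 of 11 passed this floor, against 1 of 17 DU145 markers (EGFR), 0 of 13 immune cell markers and 2 of 16 fibroblast and endothelial markers (COL1A1 and ACTA2).

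The controls differed little in most genes. The median difference over the 9209 genes was 0.02, with a standard deviation (SD) across genes of 0.23, against 0.16 for the same genes in DU145. At 2-fold, 6 genes (0.0652%) were higher with siControl and 0 (0%) were lower. At 1.5-fold, 141 genes (1.53%) were higher and 34 (0.369%) were lower. In DU145 the same genes gave 2 (0.0217%) higher and 0 (0%) lower at 2-fold, and 8 (0.0869%) and 10 (0.109%) at 1.5-fold. Over all 18417 genes in LNCaP, 30 (0.163%) were higher and 4 (0.0217%) lower at 2-fold, and 287 (1.56%) and 440 (2.39%) at 1.5-fold. With quantile normalization of the 4 LNCaP arrays, the share of higher genes among those past 1.5-fold was 69.1% instead of 80.6%. The median over the 9209 genes was then -0.05, so list medians given with quantile normalization stand beside -0.05 and not 0.02.

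TET2, the DNA demethylase that the study targets, was 9.24 with nc and 9.01 with siControl, a difference of -0.23. Its other probe set was at 8.76 on both arrays, a difference of 0.01. It was 8.59 with miR-29b and 7.89 with siTET2, so both control arrays were above both treated arrays.

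The largest difference belonged to UGT2B17, an enzyme that couples androgens to glucuronic acid and so inactivates them. Its level was 8.28 with nc, 8.76 with miR-29b, 8.56 with siTET2 and 9.62 with siControl. The siControl array stood above the other 3, and the difference between the controls was 1.34, or 2.53-fold. UGT2B10, a member of the same family, was 8.66 with nc and 9.58 with siControl (0.92), with 8.73 and 9.07 in the miR-29b and siTET2 arrays. UGT2B28, which also acts on steroids, was 9.13 with nc, 8.90 with miR-29b, 9.37 with siTET2 and 9.72 with siControl (0.58). The siControl array was the highest of the 4 for each of these 3 genes, which were named for their difference, a choice that favours this placement. The family members are close in sequence, and how far their probes read each other's transcripts was not tested.

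**Figure D1:**
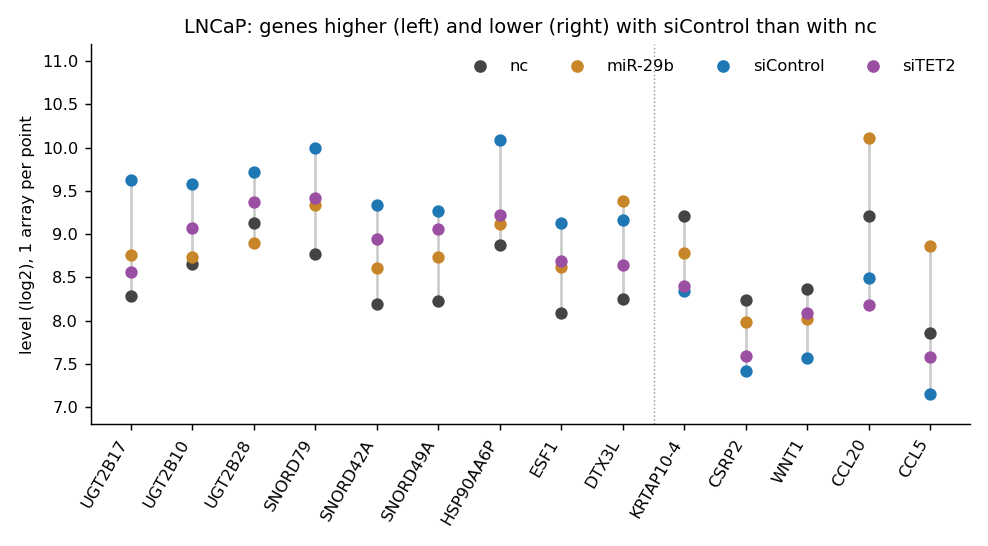
Levels (log2) of 14 genes in the 4 LNCaP arrays, 1 point per array, with genes higher with siControl left of the dotted line and genes lower to its right. UGT2B17 stands at 9.62 with siControl and at 8.28 to 8.76 in the other arrays, while CCL20 and CCL5 were highest with miR-29b.

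The list of steroid and glucuronide enzymes had 12 of 35 measured genes above the floor, with a median difference of 0.26. Of these, 8 were above 0, against 54.2% of all genes above the floor. At least 1.5-fold higher were 3, where 1.53% of all genes above the floor were. They were UGT2B17, UGT2B10 and HSD17B12, a hydroxysteroid dehydrogenase that also elongates fatty acids (9.39 with nc and 9.98 with siControl). RDH11, a retinal reductase, differed by 0.36 and HSD17B4, which breaks down steroids and fatty acids in peroxisomes, by 0.30. UGT2B28 lay just below 1.5-fold. Over all 35 measured genes the median was 0.02.

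UGT2B genes are known to be repressed by androgen in LNCaP, so the androgen lists stand beside them. The 20 androgen-repressed genes above the floor had a median of 0.06 (-0.03 with quantile normalization). Apart from the UGT2B genes, the largest differences were in TFPI, an inhibitor of blood clotting (0.48), BCHE, a cholinesterase (0.47), and LIFR, a cytokine receptor (0.38). Of the 37 androgen-induced genes, 23 were above 0, against 54.2% of all genes above the floor. Past 1.5-fold were 0, where 1.53% of all were higher and 0.369% lower. The median was 0.04 (-0.03 with quantile normalization). KLK3, which encodes prostate-specific antigen, was 13.04 with nc and 13.17 with siControl. SLC45A3, a prostate transporter, was 11.23 and 10.91, and HERC3 was 11.13 and 11.52. The androgen lists lay near the median of all genes, and UGT2B17, UGT2B10 and UGT2B28 lay above it. Whether androgen has a part in these differences was not tested.

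The second group among the leading genes was small nucleolar RNAs (snoRNAs), which guide chemical modification of ribosomal RNA and are cut from introns of host genes. C/D-box snoRNAs guide methylation of ribose, and H/ACA-box snoRNAs guide the conversion of uridine to pseudouridine. SNORD79 was 8.77 with nc, 9.34 with miR-29b, 9.42 with siTET2 and 10.00 with siControl, a difference of 1.23. SNORD42A was 8.20 with nc, 8.61 with miR-29b, 8.94 with siTET2 and 9.33 with siControl (1.14). SNORD49A was 8.23, 8.74, 9.06 and 9.26 in the same order (1.03). For all 3, nc was the lowest array and siControl the highest, which their choice at 2-fold largely fixes.

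Of 88 snoRNAs above the floor, 56 (63.6%) were above 0, against 54.2% of all genes above the floor, and 14 were at least 1.5-fold higher, against 1.53%. The median was 0.15. Above the floor the classes differed. The 54 C/D-box members had a median of 0.33, and all 14 of the 1.5-fold differences were theirs. The 34 H/ACA-box members had a median of -0.09, a range from -0.47 to 0.46 and 0 past 1.5-fold in either direction. Over all measured members, low levels included, the medians were 0.29 for 115 C/D-box and 0.06 for 61 H/ACA-box snoRNAs, with 30 and 5 at least 1.5-fold higher, so the sign of the H/ACA median depended on the floor. In DU145 both classes lay near 0, with medians of -0.02 and -0.05. The list's median was 0.08 with quantile normalization.

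Members of one host gene lay together in part. The 6 snoRNAs of GAS5 above the floor were all above 0, with SNORD79, SNORD44 (0.88), SNORD78 (0.80) and SNORD81 (0.63) past 1.5-fold, SNORD75 at 0.40 and SNORD74 at 0.05. SNHG14 holds the SNORD115 and SNORD116 copies of the Prader-Willi region. Of these, 40 were measured and 30 were above 0, where 39.9% of all 18417 genes were. The SNORD116 copies were all above 0, from 0.09 to 1.23. The SNORD115 copies, all below the floor, lay on both sides of 0, from -0.41 to 0.72, so the values below 0 were all theirs. The 12 above the floor, all SNORD116 copies, lay from 0.15 to 0.68, and their DU145 median was -0.17. These copies are near-identical, so their probe sets may read each other's RNA. The 3 snoRNAs of RABGGTB lay between 0.55 and 0.85, with the highest value in SNORD45B. The 4 of RPL13A lay between -0.18 and 0.06.

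The hosts that were measured lay near 0; GAS5, SNHG14 and RPL13A have no value of their own here. RPL23A, the ribosomal protein gene that hosts SNORD42A, was 13.17 with nc and 13.22 with siControl, a difference of 0.05. RABGGTB, a subunit of an enzyme that adds lipid to Rab proteins, was 10.76 and 10.82. Over 36 measured hosts the median difference was 0.03, with a range from -0.15 to 0.34, and the 48 snoRNAs they hold had a median of 0.11. Of the Cajal body RNAs, which guide modification of spliceosomal RNA, 8 passed the floor with a median of -0.0003. SCARNA9 was the 1 of them past 1.5-fold (1.53% of all genes above the floor were as much higher), at 8.73 with nc and 9.49 with siControl.

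The remaining genes at 2-fold were HSP90AA6P and ESF1. HSP90AA6P, a pseudogene of the chaperone HSP90, was 8.88 with nc, 9.12 with miR-29b, 9.23 with siTET2 and 10.09 with siControl, a difference of 1.22. Its parent gene HSP90AA1 was 12.68 with nc and 12.99 with siControl (0.31), and the array cannot fully separate the copies. ESF1, a nucleolar protein of ribosomal RNA processing, was 8.09 with nc, 8.62 with miR-29b, 8.69 with siTET2 and 9.13 with siControl (1.04). Just under 2-fold stood the pseudogenes LOC646214 (0.99) and ANKRD20A8P (0.99), LYPLAL1, a relative of lysophospholipases (0.98), RNPC3, a protein of the minor spliceosome (0.97), and CCDC59 (0.95). RNPC3 was 7.72 with nc and between 8.68 and 8.70 in the other 3 arrays, so the nc array stood alone. Its other probe set, of lower level, differed by 0.25. SPOPL, an adaptor of ubiquitin ligases, differed by 0.93, CRIPT, which binds synaptic scaffold proteins, by 0.90, and RDX, which links actin to the membrane, by 0.88. C5orf34 (0.91) and DENND6A (0.89) were the others among the 20 highest that belong to none of the lists.

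Over the 8 arrays, the genes most like UGT2B17 were SLC30A5, SNORA5C, AIDA, SEC23B, DCTN4 and LOC646214, with Pearson correlations from 0.9986 to 0.9989. These correlations rest mainly on the difference between the lines. Between the LNCaP controls, 5 of the 6 differed by 0.33 or less, and LOC646214 by 0.99.

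Genes of cell division were higher with siControl as a group. The 67 genes of mitosis and the G2 phase (G2/M) had a median difference of 0.35, with 59 above 0 (88.1%, against 54.2% of all genes above the floor) and 7 at least 1.5-fold higher (against 1.53% of all). In RNA from a whole dish, fewer cells in a phase and less RNA per cell cannot be told apart. KIF20B, a kinesin of cell separation, was 8.28 with nc and 9.08 with siControl (0.80). KIF14, another mitotic kinesin, was 8.35 and 9.12 (0.77). SKA1, which ties kinetochores to microtubules, was 8.55 and 9.31 (0.75). CENPE, the kinetochore motor, was 8.83 and 9.57 (0.75). SPC25, a subunit of the NDC80 complex at the kinetochore, was 8.13 and 8.82 (0.69), and ECT2, which starts the cleavage furrow, was 10.46 and 11.11 (0.65). For these 6 genes siControl was the highest of the 4 arrays, which their choice by the largest differences favours. The siTET2 array lay between -0.25 and 0.01 from nc for them.

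The other arrays place the G2/M difference. These medians share the nc array: against nc, the G2/M genes were at 0.35 with siControl, 0.23 with miR-29b and -0.33 with siTET2. The siControl array was highest for 46 of the 67 genes, siTET2 was lowest for 65 and nc for 1. Over all 9209 genes above the floor the same counts were 2463, 2095 and 2818. In DU145 the same genes had a median of 0.05 between the controls, against -0.03 over all 9209 genes. Of the 67, 42 were above 0 there, where 4038 of the 9209 were.

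Replication genes showed a smaller shift. The 53 S phase genes above the floor had a median of 0.20 (0.13 with quantile normalization), with 47 above 0 (88.7%, against 54.2% of all) and 3 at least 1.5-fold higher (against 1.53% of all). DSCC1, a loader of the replication clamp, was 7.69 with nc and 8.61 with siControl (0.92). CLSPN, a checkpoint protein of the replication fork, was 7.92 and 8.54, and E2F8, a repressor of the E2F family, was 8.31 and 8.90. POLE2, a subunit of DNA polymerase epsilon, CCNE2, a cyclin of S phase entry, and MCM6, a subunit of the replicative helicase, differed by 0.58, 0.54 and 0.53. Their DU145 median was 0.004.

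All 20 genes of homologous recombination and Fanconi repair above the floor were above 0 (against 54.2% of all), with a median of 0.33. MND1, a partner of recombinases, was 8.09 with nc and 8.80 with siControl (0.71), and CHEK2, a checkpoint kinase, was 8.08 and 8.69 (0.61). BRCA1, a recombination and tumour suppressor protein, was 8.69 and 9.21 (0.52), and BLM, a helicase, was 8.41 and 8.86 (0.45). Of the 20, MND1 and CHEK2 were at least 1.5-fold higher, against 1.53% of all genes above the floor. The DU145 median was 0.06.

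The histone genes of the replication-dependent clusters numbered 33 above the floor. Of these, 26 were above 0 (against 54.2% of all), and the median was 0.12. With quantile normalization it was 0.02. H2BC9 (8.76 with nc and 9.37 with siControl, 0.60), H2BC7 (0.58) and H2BC12 (0.51) had the largest differences, and these near-identical genes can share probes. In DU145 the same 33 genes had a median of -0.13, with 3 above 0, where 4038 of all 9209 genes above the floor were.

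**Figure D2:**
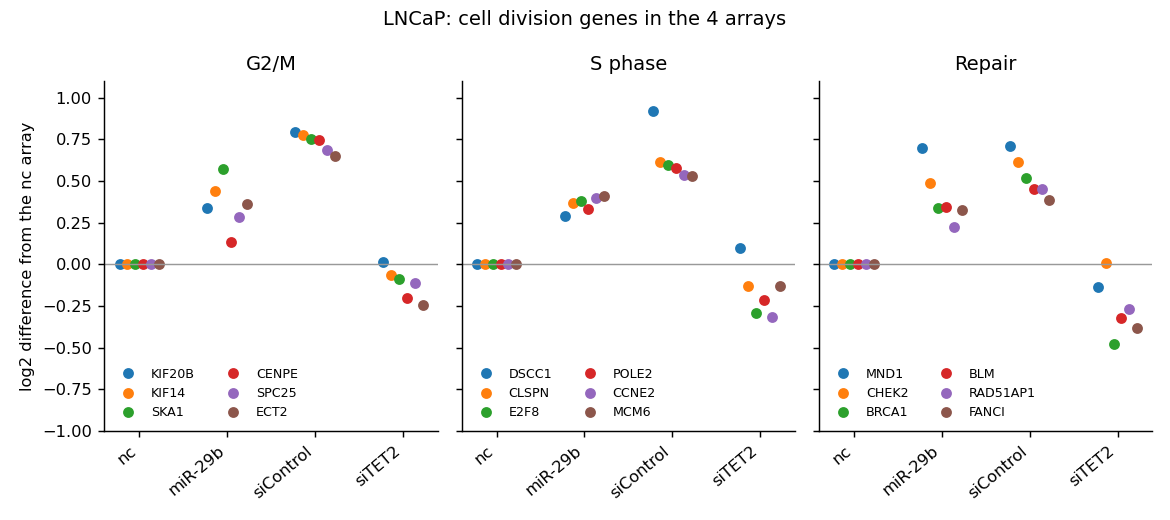
Difference of each LNCaP array from the nc array (log2) for 6 genes each of the G2/M, S phase and repair lists, 1 point per array, so that nc is at 0 by construction. The 6 G2/M genes lie between 0.65 and 0.80 with siControl and between -0.25 and 0.01 with siTET2.

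A sequence that G2/M promoters are known to share is the CHR element, read here as TTTGAA on either strand within 250 bases before the start site. Promoter windows from RefSeq (GRCh38.p14) were listed for 58 of the G2/M genes, and 27 (46.6%) held this motif, against 13.6% of all 27305 promoter windows listed. SPC25 and ECT2 are shown because they combine a 1.5-fold difference with the motif, which is in capitals. The SPC25 window is chr2:168890431-168890680 on the minus strand, with the motif beginning 247 bases before the start site, and the ECT2 window is chr3:172750476-172750725 on the plus strand, with the motif beginning 115 bases before it.
SPC25 promoter: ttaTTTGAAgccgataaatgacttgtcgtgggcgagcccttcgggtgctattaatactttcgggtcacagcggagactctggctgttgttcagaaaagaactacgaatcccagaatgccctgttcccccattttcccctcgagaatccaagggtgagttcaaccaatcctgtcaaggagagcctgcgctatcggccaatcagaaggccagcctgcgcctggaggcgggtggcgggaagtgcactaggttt
ECT2 promoter: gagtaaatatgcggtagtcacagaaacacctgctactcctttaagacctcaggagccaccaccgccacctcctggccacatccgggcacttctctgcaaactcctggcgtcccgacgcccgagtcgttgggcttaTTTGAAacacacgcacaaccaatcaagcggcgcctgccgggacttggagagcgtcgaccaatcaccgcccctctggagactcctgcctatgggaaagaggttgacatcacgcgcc
A match is a description of the letters and not a binding site. The G2/M genes with the motif had a median difference of 0.35 and those without it 0.35. Only this exact form within 250 bases was read, and whether the motif has a part in the difference was not tested. Among 47 S phase promoters 1 held it.

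C2H2 zinc finger genes, a large family of mostly repressive transcription factors, had a median of 0.11 over 297 members above the floor, with 202 above 0 (68.0%, against 54.2% of all). Of these, 16 were at least 1.5-fold higher, against 1.53% of all, and 0 lower, against 0.369%. ZNF675 was 8.69 with nc, 9.19 with miR-29b, 9.35 with siTET2 and 9.60 with siControl (0.91). ZNF718 (0.84), ZNF440 (0.77), ZNF681 (0.77), ZNF267 (0.74) and ZNF730 (0.74) followed. The nc array was the lowest of the 4 for 132 of the 297 members, where it was for 2818 of all 9209 genes. The siControl array was the highest for 94, where it was for 2463 of the 9209. In DU145 the median was 0.05.

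Protein folding and lipid genes gave smaller differences. The 16 heat shock genes had a median of 0.17 with 14 above 0, against 54.2% of all genes above the floor. They were led by DNAJB4 (8.13 with nc and 8.64 with siControl) and CHORDC1 (10.46 and 10.87), both cochaperones. With quantile normalization the heat shock median was 0.06. The 22 cholesterol genes had a median of 0.18, with 17 above 0 (against 54.2% of all). Past 1.5-fold were 0, where 1.53% of all were higher and 0.369% lower. MSMO1, a sterol oxidase, was 10.78 with nc and 11.33 with siControl (0.55), while in DU145 it differed by -0.43. IDI1, an isomerase of isoprenoid units, and STARD4, a sterol carrier, both differed by 0.48 in LNCaP and by -0.23 in DU145. SLC7A11, the cystine transporter, was 10.50 with nc and 11.09 with siControl. It was the 1 gene of the ATF4 amino acid list past 1.5-fold, where 1.53% of all genes were as much higher. That list had a median of 0.095 (0.01 with quantile normalization) over 34 genes, and SLC7A11 was higher still, 11.24, with miR-29b.

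The interferon list, which double-stranded RNA can induce, did not shift as a whole. Its 29 genes above the floor had a median of 0.03 (-0.008 with quantile normalization), with 18 above 0 (62.1%, against 54.2% of all) and 2 at least 1.5-fold higher (against 1.53% of all). DTX3L, a ubiquitin ligase of the antiviral response, was 8.25 with nc, 8.64 with siTET2, 9.16 with siControl and 9.38 with miR-29b. Its partner PARP9 was 8.12 with nc and 8.48 with siControl (0.36). IFI6, a mitochondrial protein induced by interferon, was 8.85 with nc, 9.44 with siControl, 9.94 with siTET2 and 10.02 with miR-29b. For DTX3L, PARP9 and IFI6 the nc array was the lowest of the 4, which the choice of DTX3L and IFI6 by their differences favours. EIF2AK2, the kinase PKR, was 9.33 with nc and 9.87 with siControl (0.54).

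Other interferon genes lay the other way. IRF7, a transcription factor of the response, was 8.28 with nc and 7.80 with siControl (-0.48). OASL, a relative of the oligoadenylate synthetases, was 8.02 and 7.58 (-0.44), and in DU145 it was 6.51 with nc and 7.64 with siControl (1.13). IFIT1, chosen after its values were seen, was 7.29 and 7.33 in LNCaP but 7.28 and 8.36 in DU145. IFIT2 and IFIT3, also chosen after their values were seen and below the LNCaP floor, differed by 0.20 and -0.26 in LNCaP and by 1.31 and 1.33 in DU145. These 4 genes lay above the DU145 median of the list, which was 0.06 over the 29 genes and 0.17 over all 59 measured. Of the 29, 19 were above 0 in DU145, where 4038 of all 9209 genes above the floor were. Of the 59, 46 were above 0, where 9264 of all 18417 genes were. IFI6 was 8.94 with nc and 9.73 with siControl in DU145 (0.79). IRF7 differed by -0.01 in DU145.

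The site bound by interferon-activated factors was read as GAAA followed, after any 2 bases, by GAAA again, on either strand in the same windows. Of 47 interferon genes with a listed promoter, 23 (48.9%) held it, against 3.07% of all windows. IFI6 is shown because its window holds 3 matches, in capitals, beginning 156, 115 and 93 bases before the start site. The window is chr1:27672193-27672442 on the minus strand of GRCh38.p14.
IFI6 promoter: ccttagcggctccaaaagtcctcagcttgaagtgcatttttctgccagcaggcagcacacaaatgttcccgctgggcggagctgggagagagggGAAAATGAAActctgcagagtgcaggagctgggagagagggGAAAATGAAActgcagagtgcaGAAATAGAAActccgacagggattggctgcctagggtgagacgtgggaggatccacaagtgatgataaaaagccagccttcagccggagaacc
The 10 interferon genes above the floor with the motif had a median difference of 0.06, and the 14 without it 0.06.

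Chemokine and NF-kappaB genes were lower with siControl. Of 9 above the floor, 1 was above 0, against 54.2% of all genes above it, and the median was -0.29. CCL20, which attracts lymphocytes, was 9.21 with nc, 10.11 with miR-29b, 8.19 with siTET2 and 8.49 with siControl, a difference of -0.72. CCL5, a chemokine of antiviral responses, was 7.86 with nc, 8.86 with miR-29b, 7.58 with siTET2 and 7.15 with siControl (-0.71). CXCL10, induced by interferon, was 7.86 with nc and 7.42 with siControl (-0.44), with 9.08 in the miR-29b array. The miR-29b array was the highest for these 3 genes, and the 2 siRNA arrays lay below nc for CCL20 and CCL5. Over all 27 measured members 1 was above 0 and 6 were at least 1.5-fold lower, where 2.39% of all genes were. CXCL8, a chemokine of neutrophils named after its values were seen, was 7.57 with nc and 6.95 with siControl in LNCaP, and 10.17 and 11.25 in DU145.

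The lowest differences above the floor belonged to no single pathway. KRTAP10-4, a protein of the hair shaft, was 9.21 with nc, 8.78 with miR-29b, 8.40 with siTET2 and 8.34 with siControl (-0.87). CSRP2, a LIM protein of muscle, was 8.24 and 7.42 with nc and siControl (-0.82), WNT1, a secreted growth factor, was 8.36 and 7.56 (-0.80), and CLDN11, a tight junction protein, was 8.20 and 7.45 (-0.75). CES1, a carboxylesterase, MROH6 and FAM131C followed, at -0.74, -0.73 and -0.73. MROH6 had another probe set, of lower level, at -0.21. Also among the 20 lowest were GPR139, ELANE, SHISA7, KRTAP10-2, OLFM2, ZBTB22, HMX3, MIR326, FAM201B and the pseudogenes ESPNP and ZDHHC8BP, between -0.72 and -0.67.

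Several of these are genes that prostate cells are not known to make. All 14 keratin-associated protein genes above the floor were below 0, with a median of -0.37, and 2 were at least 1.5-fold lower, against 0.369% of all genes above the floor, of which 54.2% were above 0. In DU145 these 14 had a median of 0.04. Other lists with lower values were the immediate-early genes (median -0.18, 2 of 15 above 0, led by IER5 at -0.48 and DUSP2 at -0.47), the BCL2 family of cell death regulators (-0.18, 4 of 15 above 0, led by BAX at -0.43 and BAK1 at -0.39) and the Notch pathway (-0.13, 3 of 11 above 0, led by NOTCH3 at -0.28). Epithelial genes had a median of -0.11 over 27, led by KRT14 (-0.57), while TJP1, a junction scaffold, was at 0.30. The 5 neuroendocrine genes above the floor were all below 0, with a median of -0.16.

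Of 51 lists with at least 5 members above the floor, 9 had a median of at least 0.1, 10 had one of -0.1 or less and 32 lay between. Among the 32 were the ribosomal proteins of the cytosol (-0.02 over 61) and of mitochondria (0.03 over 70), the respiratory chain (-0.03 over 70), the proteasome (0.06 over 32), p53 targets (-0.08 over 26), the known targets of miR-29 (-0.08 over 36) and the small RNA machinery (0.05 over 30). In that last list ERI1, an exonuclease that trims small RNA, differed by 0.57, and XRN2, a nuclear exonuclease, was 9.78 with nc and 10.33 with siControl. The Argonaute gene AGO4 was 8.22 and 8.45.

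**Figure D3:**
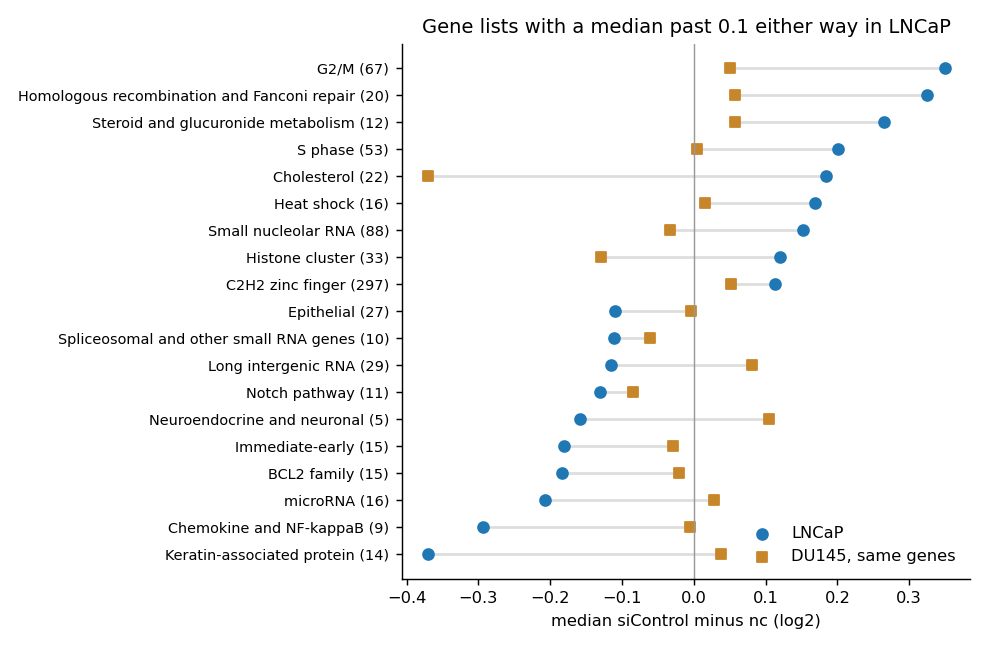
Median siControl minus nc (log2) of the 19 gene lists whose LNCaP median passed 0.1 either way, in LNCaP (circles) and for the same genes in DU145 (squares), with the number of genes above the floor in parentheses. G2/M genes stand at 0.35 in LNCaP and 0.05 in DU145, and cholesterol genes at 0.18 and -0.37.

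MicroRNA genes, host transcripts included, were mostly lower with siControl. Of 189 measured, 48 (25.4%) were above 0 and the median was -0.23, where 39.9% of all 18417 genes were above 0 and their median was -0.07. Of the 189, 16 passed the floor (median -0.21, 4 above 0, against 54.2% of all genes above it). MIR326 was 9.78 with nc, 9.48 with miR-29b, 9.28 with siTET2 and 9.05 with siControl (-0.72). MIR149 was 8.02 with nc and 7.45 with siControl (-0.57), MIR339 was 9.32 and 8.81 (-0.51), and MIR15A was 8.01 and 8.50 (0.49). The mature strands of these 4 genes (RefSeq, GRCh38.p14), shown for the 3 lowest differences and the highest one above the floor, have these sequences, with the seed in capitals.
miR-326: cCUCUGGGcccuuccuccag
miR-149-5p: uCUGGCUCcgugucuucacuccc
miR-149-3p: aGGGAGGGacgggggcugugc
miR-339-5p: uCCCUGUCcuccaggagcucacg
miR-339-3p: uGAGCGCCucgacgacagagccg
miR-15a-5p: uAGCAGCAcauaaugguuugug
miR-15a-3p: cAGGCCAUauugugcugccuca
No seed is shared among them, and the probe sets are listed under the gene rather than a mature strand.

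Differences went with the content of G and C in the hairpin. The hairpins of MIR326, at chr11:75335092-75335186 on the minus strand, and MIR15A, at chr13:50049119-50049201 on the minus strand, are shown with G and C in capitals, at 64.2% and 42.2%.
MIR326 hairpin: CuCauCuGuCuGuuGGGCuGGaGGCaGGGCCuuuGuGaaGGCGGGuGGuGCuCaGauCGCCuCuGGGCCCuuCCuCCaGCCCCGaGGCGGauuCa
MIR15A hairpin: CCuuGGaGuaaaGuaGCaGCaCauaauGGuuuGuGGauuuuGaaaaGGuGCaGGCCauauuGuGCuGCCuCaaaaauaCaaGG
Over the 155 genes with a listed hairpin, this content and the difference had a Pearson correlation of -0.53 and a Spearman correlation of -0.56 across genes. In the 39 with the least G and C the median difference was 0.08, with 24 above 0. In the 39 with the most it was -0.39, with 1 above 0. In DU145 the correlation was 0.07. The points share the same 2 arrays, and the content also went with the level itself (Pearson 0.71), so level and base composition cannot be told apart. Below the floor, MIR186 (5.64 with nc and 6.75 with siControl), MIR33A (4.92 and 3.80) and MIR331 (5.94 and 4.94), named after their values were seen, were past 2-fold.

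**Figure D4:**
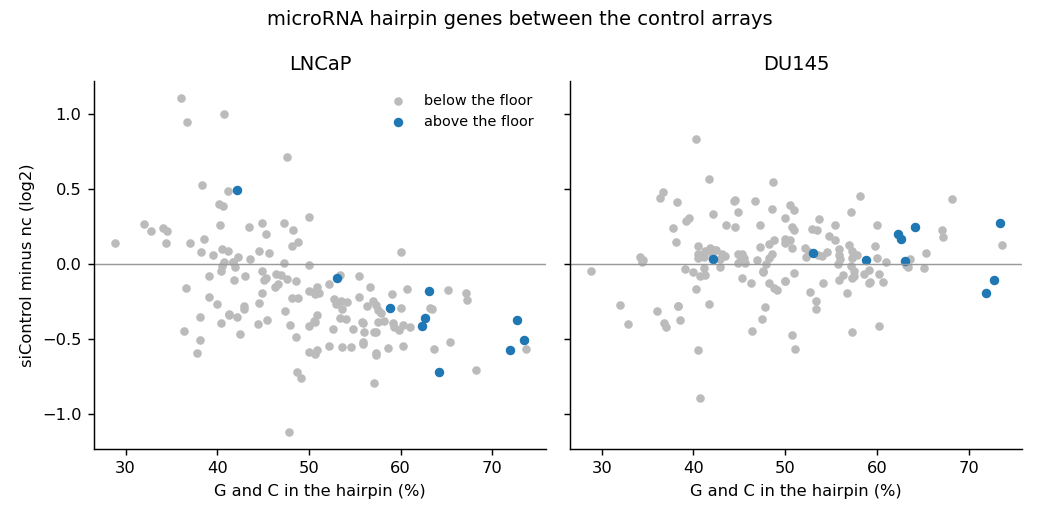
Each point is a microRNA gene, with the G and C content of its hairpin (%) against siControl minus nc (log2), in LNCaP (left) and DU145 (right), and with genes above the LNCaP level floor in blue. In LNCaP the points run downward with G and C content (correlation -0.53), and in DU145 they do not (0.07).

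Over genes in general a weaker relation of the same sign stood with promoter composition. Of the genes above the floor, 7583 had a listed promoter, and the differences had a Pearson correlation of -0.19 with its content of G and C. The 1517 genes with the least had a median difference of 0.07, and the 1517 with the most one of -0.05. By the span of the gene, the 1841 shortest (up to 8.77 kb) had a median of -0.09 and the 1841 longest (85.0 to 1369.6 kb) one of 0.08. The same extremes in DU145 were -0.005 and -0.06 for composition and -0.07 and 0.006 for span. The 9208 genes below the floor had a median of -0.18, with 24 (0.261%) higher and 4 (0.0434%) lower at 2-fold, 146 (1.59%) higher and 406 (4.41%) lower at 1.5-fold, and a DU145 median of 0.03. What part these properties have in the list medians was not tested.

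Probe sets with no gene symbol passed the thresholds far more often than named ones. Of all 33297, at 2-fold 751 (2.26%) were higher and 49 (0.147%) lower, and 2128 (6.39%) and 900 (2.7%) passed 1.5-fold. Of the 12083 with no symbol, 701 (5.8%) were at least 2-fold higher and 44 (0.364%) lower, against 42 (0.216%) and 4 (0.0206%) of those with 1 symbol. At 1.5-fold the counts were 1727 (14.3%) and 399 (3.3%) with no symbol, and 335 (1.72%) and 483 (2.48%) with 1. Most lay in a block of 4203 probe sets whose identifiers, 7892501 to 7896738, precede the first one listed with a gene. In that block the counts at 2-fold were 599 (14.3%) higher and 30 (0.714%) lower, and 1216 (28.9%) and 147 (3.5%) passed 1.5-fold, with a median difference of 0.27. The other 7880 gave 102 (1.29%) and 14 (0.178%) at 2-fold and 511 (6.48%) and 252 (3.2%) at 1.5-fold, with a median of -0.01. Arrays of this design are known to carry control probe sets for introns and exons of housekeeping genes and for background. Which of the 4203 are of which kind is not given in the sources used here.

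The most extreme were 7892982, at 3.36 with nc, 5.48 with miR-29b, 6.63 with siTET2 and 7.46 with siControl, and 7894238, at 3.29, 6.68, 6.51 and 7.07 in that order. In both, nc was the lowest array. It stood alone for 7894238, while for 7892982 the other arrays were themselves spread from 5.48 to 7.46. Probe set 7893668 was 5.37 with nc and 2.78 with siControl (-2.58), and in DU145 it differed by -2.30. Probe set 7896109 was 5.17 with nc and between 2.84 and 3.14 in the other arrays. Outside the block the largest was 8069448, at 3.26 with nc and 5.80 with siControl, and the lowest was 8141146 (-1.52), which differed by 1.52 the other way in DU145.

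Over the whole block the medians from the shared nc array were 0.06 with miR-29b, 0.15 with siTET2 and 0.27 with siControl. For the 599 members chosen as 2-fold higher, a choice that largely fixes the order, they were 0.59 with miR-29b, 0.86 with siTET2 and 1.35 with siControl. The siControl array was the highest in 519 and nc the lowest in 499. The median over the block was 0.40 at levels under 5, 0.48 from 5 to 7, 0.33 from 7 to 9, 0.22 from 9 to 11 and 0.12 above. Probe sets with 1 symbol had medians of -0.07, -0.21, -0.07, 0.04 and 0.05 in the same bins. In DU145 the block had a median of 0.005, with 69 (1.64%) at least 2-fold higher and 138 (3.28%) lower, and 268 (6.38%) and 409 (9.73%) at 1.5-fold.

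**Figure D5:**
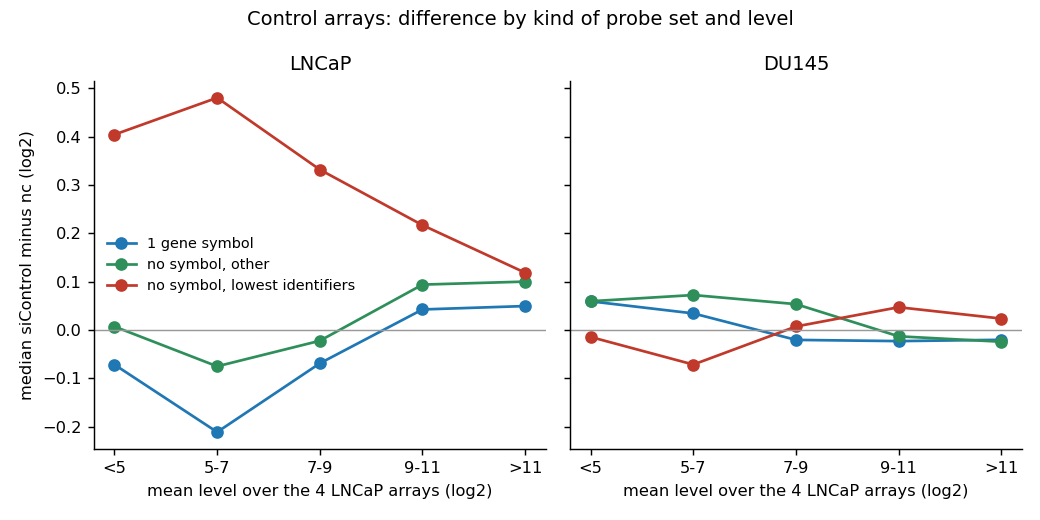
Median siControl minus nc (log2) in 5 bins of mean level for probe sets with 1 gene symbol, for those with no symbol and the lowest identifiers, and for the other probe sets with no symbol, in LNCaP (left) and DU145 (right). In LNCaP the block with the lowest identifiers is highest at levels 5 to 7, with a median of 0.48, where probe sets with 1 symbol have -0.21.

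The placement of the arrays in the named genes chosen at 1.5-fold is a description, since that choice largely fixes it. Of the 141 genes at least 1.5-fold higher, siControl was the highest array in 127, nc the lowest in 116, and both held in 104. Their medians from nc were 0.36 with miR-29b, 0.41 with siTET2 and 0.71 with siControl. Of the 34 lower genes, nc was the highest array in 31 and siControl the lowest in 32. Over all 9209 genes, siControl was the highest in 2463 and miR-29b in 2104, and nc was the lowest in 2818 and siTET2 in 2095. Over these 9209 the medians from nc were 0.02 in each of the other 3 arrays. RMA equalises probe distributions, so these medians cannot show whether the arrays have an order.

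The same contrast in DU145 shares no array with it. Over 8082 genes above the floor in both lines, the differences had a Pearson correlation of 0.40 and a Spearman correlation of 0.45, given as a description because genes are not replicates. Of 114 of these genes that were at least 1.5-fold higher in LNCaP, 85 were above 0 in DU145, where 42.8% of all 8082 genes were. Their DU145 median was 0.11, against -0.03 over all, and 1 reached 1.5-fold, where 6 of all 8082 genes did. Of 19 lower genes, 8 were below 0 in DU145, where 42.8% of all 8082 genes were above 0. The DU145 median of these lower genes was 0.03, against -0.03 over all. The differences of size in LNCaP were thus small in DU145. Most of the higher genes had the same sign there, and most of the lower genes did not.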

How the data were processed

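Expression was measured on 8 arrays, 1 per line and construct. The authors deposited 1 table of values, made with RMA in Affymetrix software (Expression Console) per the submitters' processing notes and read here as log2 from their range. RMA corrects background, equalises probe distributions and summarises probes. The log base and the arrays normalized together are not given in the sources used here, so levels were compared within a line only.

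Gene names came from the platform annotation, and 19429 of 19460 probe sets with 1 symbol matched RefSeq (GRCh38.p14) by Entrez identifier. Where a gene had more than 1 probe set (769 genes), the one with the highest mean over 8 arrays stood for the gene. Differences were computed with Python 3.11.15 and pandas 2.3.3, with no test, and the scripts were tested on simulated data. The 57 gene lists came from textbook knowledge. The members and lists were chosen with earlier results of these data known. Named genes are those at 2-fold, the 20 highest and 20 lowest, up to 6 per list with the largest difference and their complex or cluster partners, TET2, disagreeing probe sets, the 6 most like the top gene, and the 2 highest and 2 lowest unnamed probe sets. Other names are marked. Alternatives varied the floor, the centring, the normalization and the gene summary. Promoter windows and hairpins came from RefSeq.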

Additional observations from a re-analysis of the deposited data

Results flagged for a closer look

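Some results lay on opposite sides of 0 in LNCaP and DU145, and none of these differences between the lines was tested, since each line has 1 array per construct. The cholesterol genes had a median of 0.18 in LNCaP and -0.37 in DU145. The histone cluster genes had medians of 0.12 and -0.13, and the 5 neuroendocrine genes had medians of -0.16 and 0.10. ELANE, a neutrophil protease, differed by -0.71 in LNCaP and 0.37 in DU145. UGT2B10 differed by 0.92 in LNCaP and by -0.32 in DU145, where its levels were 3.28 with nc and 2.95 with siControl.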

How the results depend on the processing

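The values rest on 1 array a side, and their number limits the precision. Low levels near background limit the rest. No paired analysis was possible because each group has 1 array and no result comes from a test. The alternatives gave 2545 values, of which 181 moved, and 1 with a main size past its threshold changed sign. Of any size, 45 of 352 recomputed medians changed sign, 18 of them with quantile normalization. Among 328 genes, 0 with a difference past 1.5-fold changed sign. With no floor, 30 genes were 2-fold higher and 4 lower, and 287 and 440 at 1.5-fold, since low genes entered. With the floor on the higher array, 13 were 2-fold higher. With the stricter floor, which tests 4605 genes, 2 were 2-fold higher, and 40 and 3 passed 1.5-fold. With centring on the median, 10 were 2-fold higher. Lists with a median of at least 0.1 numbered 16 after centring and 5 after quantile normalization, against 9. Lists at -0.1 or less numbered 16 with no floor and 2 with the stricter floor, against 10. Quantile normalization moved the median over the 9209 genes from 0.02 to -0.05, and the list medians under it stand beside that value. The S phase median was 0.13 after quantile normalization. The snoRNA median was 0.083 after quantile normalization, 0.10 centred in bins of level (-0.02 over the 9209 genes) and 0.086 with the stricter floor. The steroid enzyme median was 0.018 with no floor. The long intergenic RNA median of -0.12 became 0.21 with the stricter floor, which leaves fewer genes. With the floor of the genes applied to all probe sets, 112 were 2-fold higher and 5 lower, and 608 and 107 at 1.5-fold. Among those with no symbol, 104 and 5 passed 2-fold and 427 and 64 passed 1.5-fold, and the block of lowest identifiers had a median of 0.18. Centred in bins of level, 433 probe sets were 1.5-fold lower, 256 of them with no symbol. The causes were not tested.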
